A study of Rattus norvegicus with 6 samples.

Results

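The 10 miRNAs described here are the guide strands of the miR-17/92 cluster and of its paralogs, the miR-106b/25 cluster and the X-linked cluster that holds miR-363, measured in the orbitofrontal cortex of adult male Sprague Dawley rats, an outbred stock. They were taken by name from the deposited table: rno-miR-17-5p, rno-miR-18a-5p, rno-miR-19a-3p, rno-miR-20a-5p, rno-miR-19b-3p and rno-miR-92a-3p for miR-17/92, rno-miR-106b-5p, rno-miR-93-5p and rno-miR-25-3p for miR-106b/25, and rno-miR-363-3p for the X-linked cluster. The prefix rno, for rat, is left out of most names below. All 10 names were listed, among 842 rows in all, and all 10 passed the filter on low counts. Small RNA libraries came from 3 sham-operated animals and 3 animals given repeated mild controlled cortical impact, in which a piston strikes the brain surface. Each animal had surgery on days 1, 4 and 7, and the injured animals were struck each time at 5 m/s, with the piston set to reach 2 mm deep. Tissue was taken on day 42. Sham animals therefore carried the surgeries too. No genotype or other agent is named in the labels, and the labels describe biological replicates without naming a batch.

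Members of a miRNA cluster are cut from a shared primary transcript, first by Drosha and then by Dicer, and a strand of each resulting duplex is loaded into an Argonaute protein, where bases 2 to 8, the seed, pair with target mRNAs. The miR-17/92 cluster is induced by Myc and E2F factors, promotes proliferation and survival, and is known in the nervous system from neural progenitors and growing axons. Its paralog miR-106b/25 lies within Mcm7, a gene for a subunit of the DNA replication helicase, and supports the proliferation of neural stem cells in the mouse. Known targets of the miR-17 seed include the cell cycle inhibitor Cdkn1a.

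The sequences below show how the members fall into seed groups, since the comparisons between groups rest on them. All 10 were matched by name in RefSeq (build GRCr8). Capitals mark the seed.
rno-miR-17-5p: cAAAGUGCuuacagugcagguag
rno-miR-20a-5p: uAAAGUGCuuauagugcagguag
rno-miR-106b-5p: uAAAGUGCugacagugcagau
rno-miR-93-5p: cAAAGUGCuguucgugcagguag
rno-miR-18a-5p: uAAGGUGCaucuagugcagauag
rno-miR-19a-3p: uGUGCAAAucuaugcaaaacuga
rno-miR-19b-3p: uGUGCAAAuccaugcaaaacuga
rno-miR-92a-3p: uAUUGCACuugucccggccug
rno-miR-25-3p: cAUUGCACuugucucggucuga
rno-miR-363-3p: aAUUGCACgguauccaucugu

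The miR-17 seed AAAGUGC was shared by 4 members from 2 clusters, the miR-92 seed AUUGCAC by 3 members from all 3 clusters, and the miR-19 seed GUGCAAA by 2 members. miR-18a-5p, with AAGGUGC, stood alone. Counted from the 5′ end, miR-20a-5p differs from miR-17-5p by C1U and C12U, and miR-19a-3p differs from miR-19b-3p by C11U alone. How reads that match more than 1 such name were counted is not given in the sources used here. A part of the reads of these close pairs could have been split between them or counted under both names. The 6 hairpins of miR-17/92 lie on chromosome 15, plus strand, from 98587848 to 98588632 (GRCr8). The 3 hairpins of miR-106b/25 span 22156641 to 22157123 on the minus strand of chromosome 12, where all fall inside Mcm7 on its strand. The 5 hairpins of the X-linked cluster lie on the minus strand of chromosome X from 137342777 to 137343647. miR-17-5p, miR-19b-3p and miR-92a-3p each have a second, identical copy there, so their counts pool both loci.

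Libraries held 12538288 to 23680840 counted reads, and 3 reads, the limit that a count of 0 allows, came to 0.127 to 0.239 CPM (counts per 1e6 counted reads). The neuronal miRNAs miR-124-3p, miR-128-3p, miR-9a-5p and miR-138-5p were present in every library and summed to 246143 to 340204 CPM, here and below after TMM scaling between libraries. Epithelial miRNAs of the miR-200 family set sham replicate 1 and injured replicate 2 apart, with 3528 and 1715 CPM against 7.68 to 197.3 CPM in the other 4 libraries. The fold changes, summed levels and arm ratios below were therefore also computed without these 2 libraries. Whether replicates came from separate cages or days is not stated. The p-values set a group difference against the spread between these animals, which each test estimates partly from all miRNAs or hairpins tested.

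Together the 10 guides took 0.0461% to 0.0871% of all counted reads, a minor part of the cortical miRNA pool. That total holds pairs of names whose counts lay within 1% of each other in every library. Among them were miR-9a-5p, at 182298 to 225522 CPM, and miR-9b-3p. If such reads were counted under both names, the share of the guides is understated, which was not tested. miR-93-5p, made from the Mcm7 locus, was the most abundant of the 10 guides by mean level. It had 174.8, 108.6 and 199.2 CPM in sham replicates 1, 2 and 3 and 170.7, 110.8 and 161.5 CPM in injured replicates 1, 2 and 3. Its mean placed it 177th among 534 tested miRNAs. miR-25-3p, from the same transcript but with the miR-92 seed, had 144.4, 125.2 and 171.5 CPM in sham and 132.5, 123.3 and 160.0 CPM after injury. The 2 did not differ beyond their spread, with miR-93-5p the higher in 4 of 6 libraries. miR-20a-5p, the leading product of miR-17/92, had 130.9, 96.5 and 135.2 CPM in sham and 128.8, 90.4 and 98.4 CPM after injury. It lay below miR-25-3p and above miR-92a-3p in 6 of 6 libraries, although the ranges of these neighbours overlapped.

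rno-miR-92a-3p, which restrains vessel growth in the mouse, had 108.7, 77.7 and 103.0 CPM in sham and 90.1, 81.3 and 98.3 CPM after injury. miR-19b-3p followed with 74.6, 41.3 and 53.1 CPM in sham and 72.0, 42.6 and 50.5 CPM after injury, below the whole range of miR-92a-3p. miR-17-5p and miR-106b-5p, at 34.4 and 33.1 CPM over the 6 libraries, could not be placed in order, since each was the higher in 3 libraries. miR-106b-5p was 14.9-fold above the next member, miR-19a-3p, without overlap. miR-19a-3p ranged from 1.62 to 3.05 CPM. miR-18a-5p, which lowers the glucocorticoid receptor in neuronal cells, ranged from 1.06 to 2.31 CPM, and miR-363-3p from 0.446 to 1.58 CPM. These 3 rested on 29 to 52, 19 to 62 and 8 to 34 reads per library, and miR-19a-3p was above miR-18a-5p in 5 of 6 libraries. Products of the same chromosome 15 transcript thus spanned from 1.67 CPM for miR-18a-5p to 113.4 CPM for miR-20a-5p as means over 6 libraries. Levels of different miRNAs are compared here per read, and every member is 21 to 23 bases long.

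**Figure D1:**
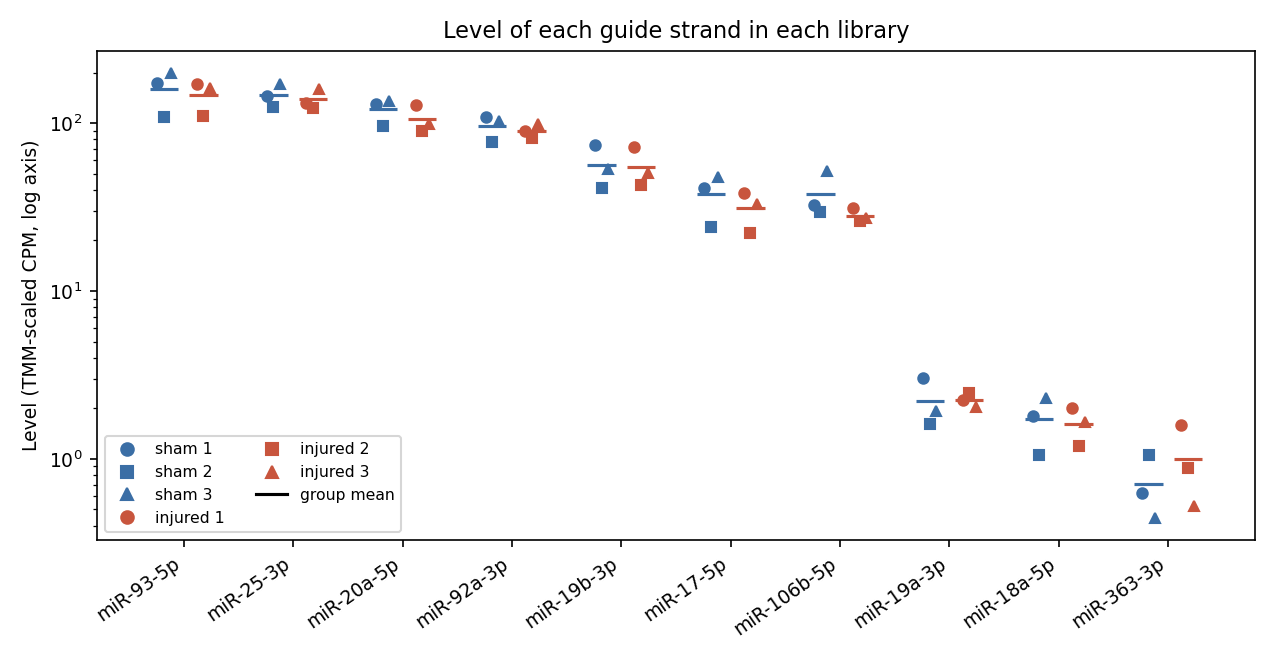
Level of each of the 10 guide strands in each of 6 libraries, in TMM-scaled CPM on a log axis, with sham libraries in blue, injured libraries in red and the group mean as a bar (n = 3 per group). The groups overlap for every miRNA, and 7 members at 22.0 to 199.2 CPM stand above 3 members at 0.446 to 3.05 CPM.

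Both loci of the shared guides could be told apart only through products made at a single locus. Guides specific to chromosome 15 (miR-18a-5p, miR-19a-3p and miR-20a-5p) summed to 1494 to 3751 reads per library. Those specific to chromosome X (miR-20b-5p and miR-363-3p) summed to 11 to 36. Nearly all of the chromosome 15 sum was miR-20a-5p, at 1436 to 3637 reads. miR-18a-5p, at 19 to 62 reads, and miR-19a-3p, at 29 to 52, lay much nearer to miR-363-3p, at 8 to 34. miR-20b-5p, the closest X-linked counterpart of miR-20a-5p, gave 3, 0 and 0 reads in sham replicates 1, 2 and 3 and 2, 1 and 1 after injury. The counts of 0 allow up to 0.154 and 0.127 CPM without that scaling in sham replicates 2 and 3. For the other arm of miR-17, the chromosome 15 product miR-17-1-3p had 8 to 30 reads and the chromosome X product miR-17-2-3p 0 to 3. For comparison, miR-17-5p itself, which both loci can make, had 350 to 1292 reads. These counts say nothing directly about the share of miR-17-5p, miR-19b-3p or miR-92a-3p made at each locus.

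None of the 10 guides differed between injured and sham animals beyond the spread between replicates. With edgeR's quasi-likelihood test, adjusted by Benjamini-Hochberg over 534 miRNAs, 0 of 10 members were called, where 0.00% of all tested miRNAs were. At an unadjusted p under 0.05 there were 0 members, against 2.25% of all tested miRNAs, and the other tools run (DESeq2, limma with voom weights, limma on logged TPM) also called 0 members. The smallest unadjusted p among members was 0.116, for miR-106b-5p. No member had groups that did not overlap, which 7.87% of all tested miRNAs had, and in 4.87% the injured animals were the lower. The 95% intervals of the members reached 0.43 to 1.23 log2 units to either side of the estimate. Differences smaller than this could have been missed, and larger ones too, since calls were adjusted over 534 miRNAs.

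rno-miR-106b-5p, a member with the miR-17 seed, had the most negative difference. It had 32.6, 29.7 and 51.9 CPM in sham and 31.0, 26.0 and 27.4 CPM in injured replicates 1, 2 and 3. Sham replicate 3 stood above the other 5 libraries, which lay between 26.0 and 32.6 CPM. The log2 fold change, injured over sham, was -0.44 ± 0.24 (SE), with a 95% interval from -1.01 to 0.14 and an adjusted p of 0.878 from edgeR. Without sham replicate 3 it was -0.15. miR-17-5p, which shares its seed, had 40.8, 24.2 and 48.0 CPM in sham and 38.4, 22.0 and 32.8 CPM after injury. Replicate 2 of each group was the lowest of its group, and the log2 fold change of -0.28 came with an interval from -1.01 to 0.45. Leaving out sham replicate 3 gave -0.063 and leaving out injured replicate 2 gave -0.057, whereas it was -0.48 when sham replicate 2 and -0.46 when injured replicate 1 was left out. miR-20a-5p had -0.19, with an interval from -0.69 to 0.31, and miR-93-5p had -0.12, from -0.77 to 0.53.

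With all libraries in the fit, the estimates outside the miR-17 seed lay closer to 0, apart from miR-363-3p. Log2 fold changes were -0.033 for miR-19b-3p and 0.038 for miR-19a-3p, whose intervals reached from -0.70 to 0.63 and from -0.67 to 0.74. With the miR-92 seed, miR-92a-3p had -0.10, from -0.54 to 0.33, and miR-25-3p had -0.085, from -0.53 to 0.36. miR-18a-5p had -0.093, from -0.95 to 0.76. miR-363-3p had 8, 19 and 12 reads in the sham group and 34, 14 and 12 after injury, a log2 fold change of 0.50 with an interval from -0.73 to 1.72. Its high value came from injured replicate 1, and without that library the log2 fold change was -0.025. The order by seed did not hold without the 2 libraries high in the miR-200 family. The miR-17 seed then had -0.46 for miR-106b-5p, -0.0033 for miR-20a-5p, 0.0076 for miR-17-5p and 0.14 for miR-93-5p. Outside it, values were 0.40 for miR-19b-3p, 0.29 for miR-19a-3p, 0.13 for miR-18a-5p, 0.087 for miR-92a-3p, 0.0063 for miR-25-3p and 0.52 for miR-363-3p.

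**Figure D2:**
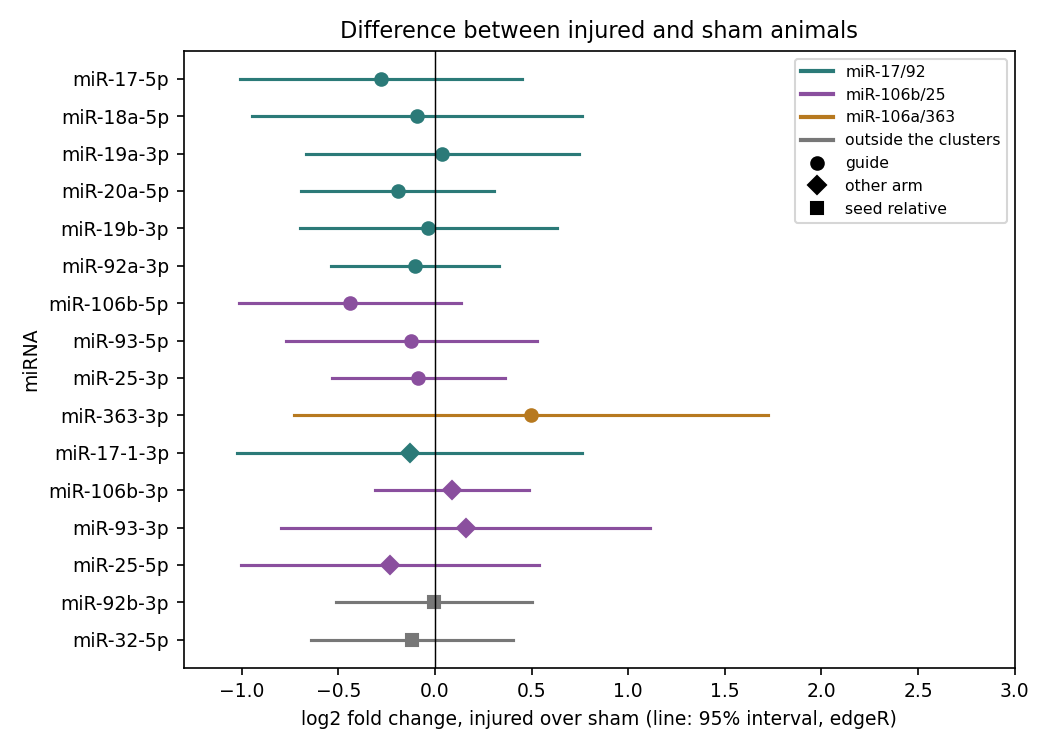
Log2 fold change of injured over sham animals with its 95% interval from edgeR, for the 10 guides (circles), the 4 tested other arms (diamonds) and the 2 tested seed relatives (squares), coloured by cluster. Every interval includes 0, and the guides run from -0.44 for miR-106b-5p to 0.50 for miR-363-3p.

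Estimates were below 0 for 8 of the 10 members and above 0 for 2, and their median was -0.097. Over all 534 tested miRNAs 54.3% were below 0 and the median was -0.029. This split depended on the scaling and on a few libraries. With upper-quartile factors, which moved the median of all miRNAs up by 0.15, 3 members were negative and 7 positive, although 8 of 10 lay below the median of all miRNAs. Leaving out injured replicate 2 gave 5 negative and 5 positive members. Leaving out the 2 libraries high in the miR-200 family gave 2 negative and 8 positive, with a median of 0.11.

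Summed by seed, the miR-17 group made up 49.8% to 56.7% of the level of the 10 guides in each library and the miR-92 group 33.5% to 41.0%. The miR-19 group held 7.17% to 11.1% and miR-18a-5p at most 0.301%. The miR-17 group summed to 379.2, 259.0 and 434.4 CPM in sham and 369.0, 249.2 and 320.1 CPM in injured replicates 1, 2 and 3. Its means were 357.5 ± 89.7 CPM in sham and 312.8 ± 60.2 CPM after injury (SD, n = 3 each), and the difference lay within the spread of either group. For the miR-92 group the means were 244.2 ± 36.5 and 229.5 ± 27.1 CPM, and for the miR-19 group 58.5 ± 17.6 and 57.3 ± 15.2 CPM. The log2 ratio of injured to sham means was -0.19 for the miR-17, -0.090 for the miR-92 and -0.032 for the miR-19 group, and with upper-quartile factors it was -0.054, 0.067 and 0.089. With 1 library left out, the miR-17 value ran from -0.38 (without sham replicate 2) to -0.029 (without sham replicate 3). The miR-92 value ran from -0.20 (without sham replicate 2) to 0.0043 (without sham replicate 3), and the miR-19 value from -0.26 (without injured replicate 1) to 0.23 (without sham replicate 1). Without both libraries high in the miR-200 family the values were -0.0091, 0.012 and 0.37. The sign of these small differences thus depended on single libraries, and sums over chosen members were given no test.

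The 6 guides listed under miR-17/92 and the 3 of miR-106b/25 summed to similar levels, with all reads of the 3 guides of 2 loci counted under miR-17/92. miR-17/92 summed to 359.9, 242.4 and 343.6 CPM in sham and 333.5, 240.0 and 283.7 CPM after injury. miR-106b/25 summed to 351.8, 263.5 and 422.7 CPM in sham and 334.2, 260.0 and 348.9 CPM after injury. In log2 terms the ratio of miR-17/92 to miR-106b/25 was -0.13 ± 0.17 in sham and -0.14 ± 0.15 after injury (SD, n = 3 each). The ratio thus differed by -0.010 between the groups, far less than the spread within either. For each cluster the log2 ratio of injured to sham means was -0.14, and with upper-quartile factors it was -0.0059 for miR-17/92 and 0.013 for miR-106b/25. With 1 library left out it ran from -0.30 (without sham replicate 2) to -0.031 (without injured replicate 2) for miR-17/92, and from -0.30 (without sham replicate 2) to 0.031 (without sham replicate 3) for miR-106b/25. Without both libraries high in the miR-200 family it was 0.075 and -0.0062. Without those 3 guides, whose split between loci is unknown, the rest of miR-17/92 summed to 94.1 to 139.5 CPM, below the whole range of miR-106b/25. miR-363-3p alone, the member made only at the X-linked cluster, held 0.0582% to 0.236% of the level of the 10 guides.

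**Figure D3:**
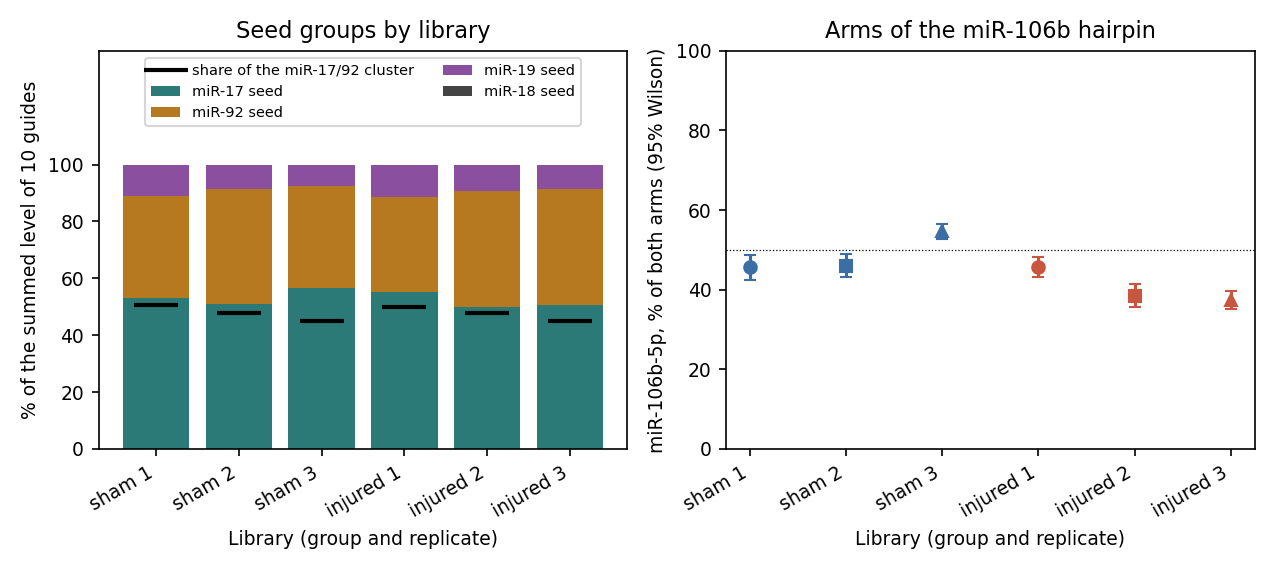
Left, share of the summed CPM of the 10 guides taken by each seed group in each library (stacked bars, in %), with the share of the 6 guides listed under miR-17/92 as a black line at 44.8% to 50.5%. Right, reads of miR-106b-5p as a percentage of both arms of its hairpin in each library, with 95% Wilson intervals for counting error only, from 37.4% in injured replicate 3 to 54.7% in sham replicate 3.

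The members differed between animals of the same group. In 7 of 10 members (miR-17-5p, miR-18a-5p, miR-20a-5p, miR-19b-3p, miR-92a-3p, miR-93-5p and miR-25-3p) the 2 lowest libraries were sham replicate 2 and injured replicate 2. The same held for 95 of all 534 tested miRNAs, or 17.8%. In these 2 libraries the median deviation of the members from their own means was -0.32 and -0.31 on the log2 scale. Over all tested miRNAs it was -0.0087 and -0.026. Scaling between libraries keeps that median small in every library, so it does not show how many other miRNAs shifted as far. Sham replicate 3 was the highest library for 6 members and sham replicate 1 for 3. Their median deviations were 0.27 and 0.22, against 0.045 and 0.0099 over all tested miRNAs. The share of all tested miRNAs highest in sham replicate 3 is not given here. miR-17-5p varied 2.18-fold across the 6 libraries and miR-25-3p 1.39-fold.

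Markers of other cell types also differed between these libraries. The oligodendrocyte miRNAs miR-219a-5p and miR-338-3p summed to 163.1 CPM in sham replicate 2 and 149.1 CPM in injured replicate 2, against 226.5 to 291.9 CPM in the other 4 libraries. The vessel miRNAs miR-126a-3p, miR-143-3p and miR-145-5p had their highest sums in the same 2 libraries, at 36336 and 46705 CPM against 24370 to 30689 CPM. Most of that sum was miR-143-3p, and miR-145-5p was lowest there, at 174.0 and 208.2 CPM. The neuronal miRNAs also had their highest sums in these 2 libraries, at 340204 and 323911 CPM against 246143 to 316914 CPM. Most of each neuronal sum was miR-9a-5p. miR-128-3p was highest in these 2 libraries, at 110017 and 115443 CPM against 56901 to 92983 CPM. The 4 myeloid markers summed to 253.6, 300.5 and 419.2 CPM in sham and 291.1, 148.6 and 192.7 CPM in injured replicates 1, 2 and 3. Most of each myeloid sum was miR-342-3p, at 200.6, 257.1 and 375.9 CPM in sham and 244.8, 122.3 and 161.1 CPM after injury. None of these markers was at 0 in any library, and their part in the members' levels was not tested. Fewer cells of a type and less RNA per cell cannot be told apart in such tissue samples. Several members, among them miR-92a-3p and miR-25-3p, are also abundant in red blood cells. The red blood cell miRNAs miR-144-3p, miR-144-5p and miR-451-5p summed to 51.8, 92.7 and 53.9 CPM in sham and 23.5, 43.1 and 27.6 CPM after injury. All 3 injured sums lay below all 3 sham sums. Most of each sum was miR-451-5p, at 43.2, 79.0 and 47.7 CPM in sham and 18.6, 34.6 and 23.4 CPM after injury. Its groups did not overlap, with injured the lower, as in 4.87% of all tested miRNAs, whereas those of miR-144-3p and miR-144-5p overlapped. The part of the red blood cell markers in the members' levels was not tested.

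**Figure D4:**
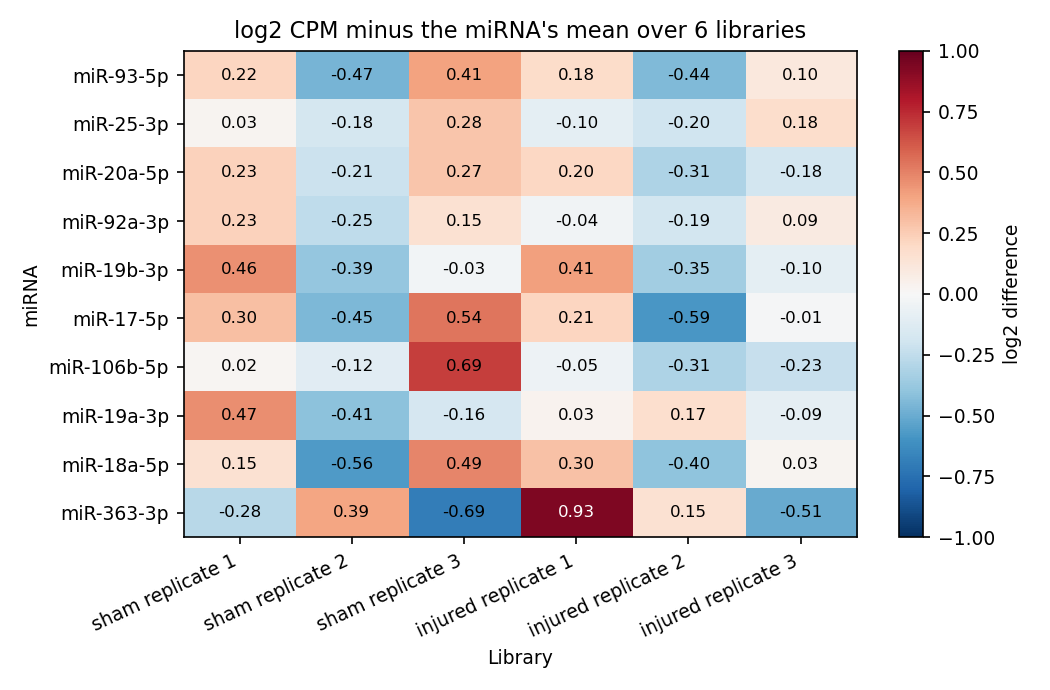
Log2 CPM (prior count 2) of each of the 10 guides minus its mean over the 6 libraries, with red above and blue below the mean. Columns are libraries by group and replicate. Sham replicate 2 and injured replicate 2 are below the mean for 9 and 8 of the 10 members.

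Ratios between members varied about as much within a cluster as between clusters. For the 7 members with a mean of at least 100 reads, the SD over the 6 libraries of the log2 ratio of a pair had a median of 0.27 over 9 pairs from the same cluster and 0.25 over 12 pairs from different clusters. Over all pairs of the 83 tested miRNAs in the same range of mean CPM the median was 0.38. By seed, the median was 0.22 over 7 pairs that share a seed and 0.27 over 14 pairs that do not. Counting error alone gives an SD of at most 0.085 for these pairs. The steadiest were miR-17-5p with miR-93-5p, at 0.11, and miR-92a-3p with miR-25-3p, at 0.12. Each of these pairs shares a seed but comes from different chromosomes. Within miR-17/92, miR-20a-5p exceeded miR-17-5p by 2.82-fold to 4.10-fold and miR-19b-3p exceeded miR-19a-3p by 17.3-fold to 32.2-fold. Pairs share members and libraries, so these values are a description without a test.

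Outside the clusters' own strands and seed relatives, the profiles most like that of miR-17-5p, by root mean square difference of centred log2 CPM over 6 libraries, were those of miR-539-3p at 0.13, miR-3594-3p at 0.14 and miR-23a-3p at 0.14. miR-93-5p was nearer than any of these, at 0.10, and miR-18a-5p also, at 0.12, and the median over all tested miRNAs was 0.46. miR-106b-5p was nearest to miR-490-5p at 0.10, miR-664-3p at 0.11 and miR-361-5p at 0.11, with 0.27 for its neighbour on the transcript, miR-93-5p, and a median of 0.40.

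The other arms of the members' hairpins, which the choice of members did not use, were listed for 11 of 13 names, and 4 passed the filter. Guides, for miR-17-5p with both loci pooled, took 96.7% or more of the reads of both arms in every library for miR-93, miR-25 and miR-17-1. Their other arms had 13 to 32, 14 to 40 and 8 to 30 reads per library. The remaining 7 listed arms had at most 9 reads in any library. Among them miR-18a-3p had 3, 5 and 6 reads in the sham group and 1, 2 and 2 after injury, too few to compare. Of the 4 tested arms 0 were called by edgeR and 0 had an unadjusted p under 0.05, with log2 fold changes from -0.23 for miR-25-5p to 0.16 for miR-93-3p.

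The miR-106b hairpin gave both arms in like amounts, and its log2 arm ratio lay within 1 of 0 in all libraries, as for 13 of 177 hairpins. miR-106b-3p had 38.9, 34.8 and 43.0 CPM in sham and 36.9, 41.6 and 45.8 CPM after injury, a log2 fold change of 0.089 with an interval from -0.31 to 0.49. miR-106b-3p does not carry the miR-17 seed. Its sequence is shown because it was as abundant as the guide.
rno-miR-106b-3p: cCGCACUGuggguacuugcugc
As a share of both arms, miR-106b-5p took 45.6%, 46.0% and 54.7% in the sham group and 45.7%, 38.5% and 37.4% in injured replicates 1, 2 and 3. Injured replicate 1 lay with sham replicates 1 and 2, so the groups overlapped. The log2 ratio of 5p to 3p reads was -0.072 ± 0.30 in sham and -0.56 ± 0.27 after injury (SD, n = 3 each). The difference of -0.48 ± 0.26 (SE) had a 95% interval from -1.08 to 0.11 and an adjusted p of 0.840 from limma over 177 hairpins. Over all hairpins limma called 0.00%, and 2.26% passed 0.05 before adjustment, where miR-106b did not. Its leading arm differed between libraries, which was so for 11 of the 177 hairpins. Differences for the other 3 tested hairpins were -0.045 for miR-17-1, -0.20 for miR-25 and -0.34 for miR-93 (5p over 3p), each with an interval that included 0.

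Seed relatives outside the 10 were listed for 3 of 6 names. miR-92b-3p, encoded on chromosome 2 (GRCr8) with the miR-92 seed, exceeded every member, with 343.5, 251.9 and 353.1 CPM in sham and 263.4, 386.4 and 295.6 CPM after injury. Relative to miR-92a-3p its sequence has U10C and G21C. miR-92b-3p was highest in injured replicate 2, as no member was, and its log2 fold change was -0.0049, with an interval from -0.51 to 0.50. miR-32-5p, also with the miR-92 seed, ranged from 6.16 to 9.31 CPM and had a log2 fold change of -0.12, from -0.64 to 0.40. Of these 2 tested relatives 0 were called by edgeR and 0 had an unadjusted p under 0.05, and miR-20b-5p did not pass the filter. The arm ratio of the miR-32 hairpin was 3.21, 2.82 and 3.65 in sham and 3.79, 3.63 and 4.45 in injured animals on the log2 scale. The highest sham value overlapped the lowest injured one, and the difference of 0.73 ± 0.32 (SE) had an adjusted p of 0.840 from limma. Arm ratios of the other relatives, and that of miR-32 with libraries left out, are not given here.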

How the data were processed

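Small RNA was sequenced from 3 sham and 3 injured animals. Per the labels' protocols, adaptors were added with a NEBNext small RNA kit and products of miRNA size were cut from a gel; adaptor ligation can favour some miRNAs over others. Bowtie and the rat build rn6 are named in the submitters' processing notes. How reads were filtered and counted, and on which miRBase release, is not stated in the labels. The deposited table held raw read counts and TPM values per library, per the file headers. The TPM values equalled the deposited counts scaled to 1 common library sum, with no length term, to within 4.66e-10.

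Counts were tested with edgeR 4.0.16 in R 4.3.3 (quasi-likelihood test, TMM scaling, filterByExpr with a minimum count of 10 and a minimum total of 15, calls at an adjusted p of 0.05 over 534 miRNAs). Standard errors are the absolute log2 fold change over the square root of the F statistic. Arm ratios, log2 of 5p over 3p counts with a pseudocount of 0.5, were tested with limma 3.58.1 for 177 hairpins with a mean of at least 10 reads in each arm, some of which share a row. DESeq2 1.42.0 served as an alternative. Procedures were tested on simulated data. The members, lists and alternatives were chosen with earlier results of these data known, and replicate numbers follow accession order. The named miRNAs are the members, their other arms, their seed relatives and, for miR-17-5p and miR-106b-5p, the 3 others nearest in profile. Intervals on shares and the limit of 3 reads cover counting error only. No member was in any of the 26 pairs of names whose counts lay within 1% of each other. Sequences came from RefSeq (GRCr8), a later build than that of the files. The marker miR-486 and the names miR-19b-2-5p, miR-92a-2-5p, miR-106a-5p, miR-18b-5p and miR-367-3p were not analysed here.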

Additional observations from a re-analysis of the deposited data

How the results depend on the processing

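Under 17 alternatives (16 for miR-18a-5p, miR-19a-3p and miR-363-3p; scaling, filter, tool, unit, near-duplicate names, libraries left out) 0 members were called and 0 hairpins were called for arm ratio under 9. Summed levels had 10 (scaling and libraries left out; 12 for miR-17/92) and moved by less than 1 SD between replicates, except that the miR-19 seed sum became 0.37 without the 2 libraries named next, an alternative for sums chosen after seeing the data. Over all miRNAs 0 were called, except that leaving out sham replicate 1 and injured replicate 2, which are high in miR-200 family members, called 1 miRNA, miR-293-5p, which is no member. Directions of small differences turned. With upper-quartile factors log2 fold changes became 0.075 for miR-25-3p, 0.043 for miR-18a-5p, 0.087 for miR-19b-3p, 0.050 for miR-92a-3p, 0.020 for miR-93-5p, 0.0024 for miR-32-5p and 0.15 for miR-92b-3p. Without the 2 libraries named above they became 0.0076 for miR-17-5p, 0.0063 for miR-25-3p, 0.14 for miR-93-5p, 0.087 for miR-92a-3p, 0.40 for miR-19b-3p, 0.13 for miR-18a-5p, 0.13 for miR-17-1-3p and 0.14 for miR-25-5p, and the arm difference of miR-25 became 0.12. miR-19a-3p became -0.040 with library totals and -0.0055 with limma on log2(TPM + 1). miR-92b-3p became 0.025 with 1 row per near-duplicate pair, 0.029 with DESeq2, 0.030 with RLE factors, 0.0099 with a minimum mean count of 50 and 0.014 without a filter. With 1 library left out, ranges were -0.30 to 0.20 for miR-18a-5p, -0.10 to 0.37 for miR-19a-3p, -0.27 to 0.26 for miR-19b-3p, -0.17 to 0.040 for miR-25-3p, -0.20 to 0.032 for miR-92a-3p, -0.30 to 0.071 for miR-93-5p, -0.025 to 0.96 for miR-363-3p, -0.43 to 0.15 for miR-17-1-3p, -0.072 to 0.67 for miR-93-3p, -0.32 to 0.022 for miR-32-5p, -0.15 to 0.11 for miR-92b-3p and -0.24 to 0.058 for the arm difference of miR-17-1. The cause of these turns was not tested. miR-106b-5p and miR-20a-5p kept a negative sign under all 17, at -0.54 to -0.15 and -0.35 to -0.0033. Leaving miR-17-5p out of the miR-17/92 sum together with miR-19b-3p and miR-92a-3p, an alternative chosen after seeing the data, gave -0.19, and leaving out miR-19b-3p and miR-92a-3p gave -0.21. A mean count of 50 removed miR-18a-5p, miR-19a-3p and miR-363-3p from the test. No paired analysis was possible because the labels give no replicate number that animals of both groups share.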
